A study of Mus musculus with 6 samples.

Results

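The 10 genes described here encode components of planar cell polarity and the very large cadherins linked to it, and they were chosen by symbol: Celsr1, Celsr2, Vangl1, Vangl2, Prickle1, Prickle2, Ror2, Fat1, Fat4 and Dchs1. All 10 had a row among the 16982 genes of the deposited count table and all 10 passed the filter on low counts, which left 13386 genes. They were read by RNA-seq in 3 WT and 3 Rnf20 knockout (Rnf20-/-, KO) cultures of mouse embryonic fibroblasts (MEF) of C57BL/6 background, labelled as reprogrammable cells. All 6 cultures had been infected with retroviruses for the reprogramming factors OCT4, SOX2, KLF4 and C-MYC and were harvested on day 3 of reprogramming. Per the study's methods, the KO cells came from Rnf20 Flox/Flox embryos with a ubiquitously expressed, tamoxifen-inducible Cre, and the deletion was induced with 4-OH tamoxifen, whereas the labels list all 6 cultures as untreated. Whether the WT cultures carried Cre or received the drug is not stated. Per the same methods infected cells were moved onto mitomycin-C-treated MEF feeder layers, and it is not stated whether feeder cells were in the RNA samples.

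Planar cell polarity is the alignment of cells within the plane of a tissue. In its core system the seven-pass cadherins CELSR1 and CELSR2 link neighbouring cells, with Frizzled and Dishevelled proteins on the side of one cell facing the membrane protein VANGL and its cytoplasmic partner PRICKLE on the other. ROR2 is a receptor for WNT5A that acts in the same direction of signalling, and the giant cadherins FAT4 and DCHS1 form a second system in which they bind each other between cells. In fibroblasts and mesenchyme these genes are known for roles in migration and tissue elongation, and H2B ubiquitination by RNF20 is a mark of transcribed gene bodies.

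Each library held between 20545442 and 21746898 counts. Levels are given as CPM, counts scaled to a common library total with the TMM factors of edgeR, or per length as RPKM, which is that CPM divided by the deposited gene length in kilobases. Rnf20, the targeted gene on chromosome 4 (GRCm38, 49632006 to 49656887, plus strand), had 107, 107 and 106 CPM in WT replicates 1 to 3 and 18.7, 18.5 and 16.4 in KO replicates 1 to 3, so the labels and the gene went together. KO replicate 3 stood apart. A chi-square statistic of its counts against the other KO libraries was 92.4 and 101 per gene, against 8.57 between KO replicates 1 and 2 and 6.04 to 8.91 among the WT libraries. The Y-linked gene Ddx3y had 0 counts in KO replicates 1 and 3 and 1990 to 2686 in the other 4 libraries. Among the KO libraries only replicate 2 thus held RNA of this gene, as all WT libraries did, and the part of sex was not tested. Nothing in the labels says whether replicates were separate cultures, and the p-values measure the spread between these samples.

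Summed levels of marker lists also set KO replicate 3 apart. The 10 fibroblast markers, all measured, summed to 30335 to 33097 CPM in WT, to 31976 and 39856 in KO replicates 1 and 2 and to 21634 in KO replicate 3, and 2 of them were lower in KO. In KO replicate 3, 6 of the 10 lay below the WT mean, Col3a1 at 33.3% of it, and 4 above, Vim at 124%. Of 10 epithelial markers 8 were in the table and 6 were tested, and they summed to 57.3 to 61.5 CPM in WT, 78.0 and 54.2 in KO replicates 1 and 2 and 22.2 in KO replicate 3, with 1 lower and 1 higher. Krt19, the higher gene, gave 43.2 and 29.7 CPM of the sums in KO replicates 1 and 2. For 5 of the 8 genes every KO library lay below every WT library and for 2 above, against 28.2% and 26.6% of all genes tested. Among the 5 was Krt8, with 28.4 to 30.3 CPM in WT and 18.1, 12.4 and 0.714 in KO replicates 1 to 3. The 10 macrophage markers summed to 57.6 to 120 CPM in WT, 93.7 and 57.9 in KO replicates 1 and 2 and 250.2 in KO replicate 3, with 0 called. Lyz2 gave 159 CPM of the last sum, and in that library 7 of the 10 lay above the WT mean and 3 below it, C1qa at 57.8%. These single markers are named after their values were seen. The neural and glial list (6 of 7 genes in the table, 5 tested) gave 53.5 to 55.9 CPM in WT and 28.2 to 48.9 in KO. The endothelial list (6 genes, 2 tested) gave 48.6 to 59.0 and 32.3 to 67.3 CPM, the skeletal muscle list (4 of 5 genes, 1 tested) 7.08 to 8.87 and 4.43 to 12.5, and the 4 reprogramming factors 1911 to 2251 and 1436 to 1927. The endothelial sum was mostly Tek, with 46.6 to 58.1 CPM in WT and 30.8 to 64.5 in KO. Pecam1 had 0 to 11 counts a library and Cdh5 0 to 5. Des gave nearly all of the muscle sum, and Myod1, Myog and Ckm had 0 counts in WT and 0 to 3 in KO. These genes too are named after their values were seen. In the neural and glial list 1 gene was lower, and in the endothelial and muscle lists 0 were called. Of the factors 1, Klf4, was called as lower, also named after its values were seen. It had 613, 709 and 711 CPM in WT and 529, 462 and 521 in KO replicates 1 to 3 (edgeR adjusted p = 0.0176). All 6 cultures were infected with vectors for these factors, and vector and endogenous RNA were not told apart in the counts. No marker in the table was at 0 in all 6 libraries, and the part of other cell types in the results below was not tested.

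On the per-length scale the WT cultures expressed all 10 genes, in an order that was clear of replicate spread at nearly every step. Fat1 was highest with 41.8 ± 1.57 RPKM (mean ± SD, n = 3 for each value in this paragraph), followed by Ror2 with 18.4 ± 1.39, Fat4 with 12.1 ± 1.22, Prickle2 with 9.29 ± 0.642 and Prickle1 with 8.29 ± 0.338. Dchs1 had 6.51 ± 0.827 RPKM, Vangl2 5.39 ± 0.260, Celsr2 3.75 ± 0.147, Vangl1 3.34 ± 0.349 and Celsr1 1.34 ± 0.220. In WT only Celsr2 and Vangl1 overlapped as neighbours in this order. In KO cells Fat1 stayed clear of the next gene, with 39.6 to 68.3 RPKM against 9.42 to 16.1 for Ror2, while Vangl1 (4.06 ± 0.524) stood above Vangl2 (3.12 ± 0.364) and overlapped it. Fat1 made up 37.0% to 38.5% of the summed RPKM of the 10 genes in the WT libraries and 51.8% to 53.3% in the KO libraries. Without Fat1 the sum was 67.1 to 69.6 RPKM in WT, 56.6 and 60.0 in KO replicates 1 and 2 and 36.8 in KO replicate 3.

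**Figure D1:**
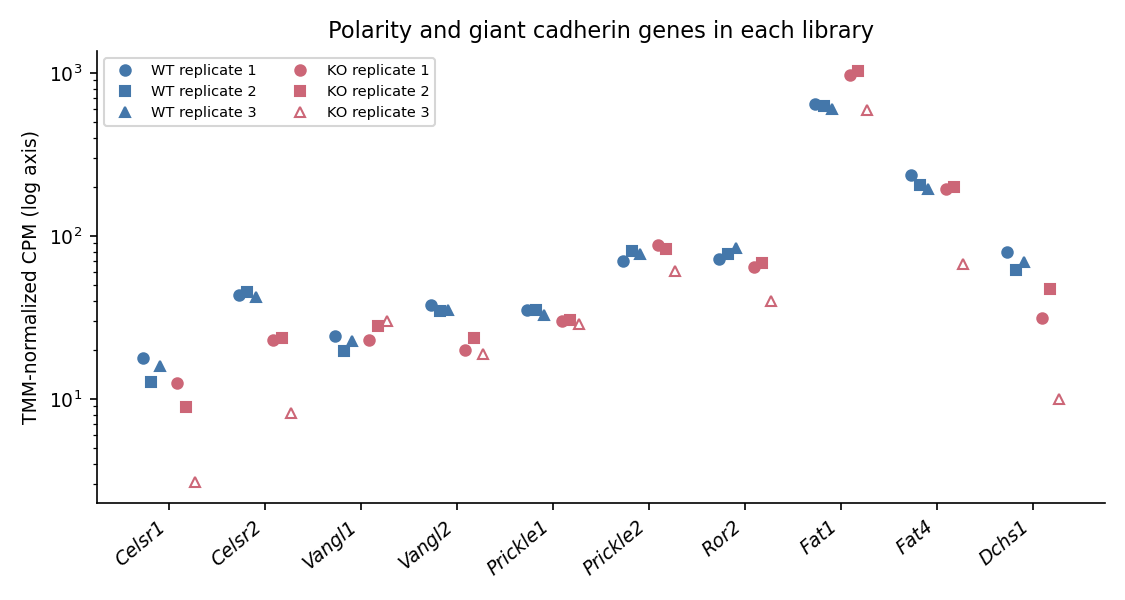
TMM-normalized CPM (log axis) of the 10 genes in each of the 3 WT and 3 KO libraries, with 1 point per library. KO replicate 3, the open triangle, was the lowest of the 6 libraries for every gene shown except Vangl1.

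Between genotypes, 2 of the 10 genes fell in KO cells, Vangl2 and Celsr2, and 0 rose, with an adjusted p under 0.05 (edgeR, quasi-likelihood test, Benjamini-Hochberg adjustment over all genes tested). Of all 13386 genes tested, 16.6% were lower and 16.4% higher by this rule. The count of 0 higher genes was also 0 at an unadjusted p under 0.05 and with DESeq2, and it was 1 with limma on FPKM, where Vangl1 passed. By the study's limits on adjusted p (under 0.01), fold change (over 1 on the log2 scale) and FPKM (over 1, read here as the mean of either genotype) 0 members were lower and 0 higher, against 2.08% and 1.5% of all genes tested. These calls are of the edgeR test used here, which gave 279 lower and 201 higher genes. The study's own test gave other totals, and its calls for the members were not used. At an unadjusted p under 0.05 with the same limits on size and FPKM, 2 members were lower and 0 higher. With DESeq2 and the study's limits 1 member, Celsr2, passed as lower. Shares of all genes were not computed for the unadjusted p, DESeq2 or limma. All 3 KO libraries lay below all 3 WT libraries for 6 members, against 28.2% of all genes tested, and above them for 0, against 26.6%. Without KO replicate 3, 5 members were lower (Celsr1, Celsr2, Vangl2, Dchs1 and Ror2) and 1, Fat1, was higher, against 24.2% and 23.9% of the 13529 genes then tested. The median log2 fold change of the 10 genes was -0.45 and that of all genes tested -0.00032, and without KO replicate 3 these medians were -0.20 and -0.0068.

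Celsr2, on chromosome 3 (GRCm38, 108390851 to 108415552, minus strand), encodes a seven-pass cadherin of the core system. It had 43.3, 45.4 and 42.0 CPM in WT replicates 1 to 3 and 23.2, 23.7 and 8.24 CPM in KO replicates 1 to 3. The KO libraries all lay below the WT libraries, and KO replicate 3 lay far below the other KO libraries. The KO mean was 42.2% of the WT mean, a log2 fold change of -1.24 (standard error 0.362, edgeR adjusted p = 0.0394). Without KO replicate 3 the fold change was smaller and its error narrower, -0.89 with a standard error of 0.0742 (edgeR adjusted p = 1.00e-05). Leaving out a WT library ended the call, since the edgeR adjusted p was 0.102, 0.113 and 0.107 without WT replicate 1, 2 or 3, at log2 fold changes of -1.25, -1.22 and -1.27. In these bulk samples fewer cells that express a gene and less of its RNA per cell cannot be told apart.

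Celsr1, its paralogue on chromosome 15 (85898929 to 86033777, minus strand), was the lowest of the 10 genes. It had 17.7, 12.7 and 15.8 CPM in WT and 12.6, 8.93 and 3.10 in KO replicates 1 to 3, with KO replicate 1 close under the lowest WT library. Its log2 fold change of -0.91 (standard error 0.445) did not pass the test (edgeR adjusted p = 0.157). Without KO replicate 3 it was -0.52 (standard error 0.173, edgeR adjusted p = 0.0312).

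Vangl2 encodes the membrane protein whose loss in mice gives the Looptail neural tube defect, and lies on chromosome 1 (172000960 to 172028444, minus strand). It had 37.7, 34.4 and 35.3 CPM in WT and 19.9, 23.5 and 18.9 in KO replicates 1 to 3. The 3 KO libraries were close to each other and clear of WT, and KO replicate 3 did not stand apart. The KO mean was 58.0% of the WT mean, a log2 fold change of -0.79 (standard error 0.106, edgeR adjusted p = 0.00501). Over the 14 alternatives, each left-out library among them, its adjusted p stayed between 2.08e-07 and 0.0346 and its log2 fold change between -0.88 and -0.72.

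Vangl1, the paralogue of Vangl2 on chromosome 3 (102153583 to 102204693, minus strand), went the other way in sign. It had 24.3, 19.7 and 22.7 CPM in WT and 23.2, 28.1 and 29.9 in KO replicates 1 to 3, so KO replicate 1 lay within the WT range. The log2 fold change was 0.28 (standard error 0.131, edgeR adjusted p = 0.141), and over the 14 alternatives it stayed between 0.20 and 0.44, with an adjusted p under 0.05 in limma on log2(FPKM + 1) alone (0.0354).

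Prickle1 and Prickle2 encode LIM-domain proteins that bind VANGL at the membrane, and lie on chromosomes 15 (93499114 to 93595891, minus strand) and 6 (92370908 to 92706155, minus strand). Prickle1 had 35.3, 35.3 and 32.9 CPM in WT and 30.3, 30.6 and 28.6 in KO replicates 1 to 3. The groups did not overlap but lay close together (log2 fold change -0.21, standard error 0.0763, edgeR adjusted p = 0.0743). With scaling by library size only the edgeR adjusted p was 0.0366. Prickle2 had 70.2, 80.5 and 77.4 CPM in WT and 87.8, 83.6 and 60.9 in KO, with KO replicates 1 and 2 above WT and KO replicate 3 below it. Its log2 fold change of 0.026 (standard error 0.145, edgeR adjusted p = 0.902) changed sign in 5 of the 14 alternatives and was 0.17 without KO replicate 3.

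Ror2, on chromosome 13 (53109312 to 53286124, minus strand), encodes the receptor tyrosine kinase-like protein that binds WNT5A. It had 72.5, 77.1 and 84.3 CPM in WT and 64.6, 68.3 and 39.96 in KO replicates 1 to 3. All KO libraries were below WT, KO replicates 1 and 2 only narrowly. The log2 fold change was -0.44 (standard error 0.198, edgeR adjusted p = 0.133), and -0.23 without KO replicate 3 (standard error 0.0738, edgeR adjusted p = 0.0264).

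Among the giant cadherins, Fat1 on chromosome 8 (44935447 to 45052257, plus strand), which acts at the cell cortex in actin organization and migration, had 648, 631 and 602 CPM in WT and 967, 1022 and 593 in KO replicates 1 to 3. KO replicates 1 and 2 lay at 154% and 163% of the WT mean and KO replicate 3 at 94.6%, below every WT library. The log2 fold change was 0.46 (standard error 0.198) and did not pass the test (edgeR adjusted p = 0.118). Without KO replicate 3 it was 0.67 (standard error 0.0563, edgeR adjusted p = 1.08e-05), and with that library kept and a correction for gene length it was 0.51 (edgeR adjusted p = 0.00958).

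Fat4, on chromosome 3 (38886940 to 39011985, plus strand), is the receptor of the Fat-Dachsous system. It had 237, 207 and 195 CPM in WT and 193, 200.4 and 67.2 in KO replicates 1 to 3, so KO replicate 1 was just under the WT range, KO replicate 2 within it and KO replicate 3 far below it. The log2 fold change was -0.47 (standard error 0.377, edgeR adjusted p = 0.364), and -0.11 without KO replicate 3 (standard error 0.0773, edgeR adjusted p = 0.259). Dchs1, the gene of its ligand on chromosome 7 (105752990 to 105787654, minus strand), had 79.4, 61.8 and 68.9 CPM in WT and 31.3, 46.9 and 10.002 in KO replicates 1 to 3. Every KO library was below every WT library, at 44.6%, 67.0% and 14.3% of the WT mean. Its log2 fold change of -1.25, beside -1.24 for Celsr2, had the widest error of the 10 genes (standard error 0.481) and did not pass the test (edgeR adjusted p = 0.0868). Without KO replicate 3 it was -0.84 (standard error 0.153, edgeR adjusted p = 0.00136), and without KO replicate 2 it was -1.76 (edgeR adjusted p = 0.0424). In limma on log2(FPKM + 1) it passed narrowly (-1.12, adjusted p = 0.0457). Exons of Dchs1, Fat1, Fat4 and Vangl1 share bases with annotated genes on the opposite strand, 648 bases with Gm15645 for Dchs1, 487 with Gm2366 for Fat1, 1209 with C230034O21Rik and 281 with Gm43539 for Fat4 and 8 with Gm16160 for Vangl1. Whether the counting used the strand is not given in the sources used here, so reads of these partners cannot be told apart.

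**Figure D2:**
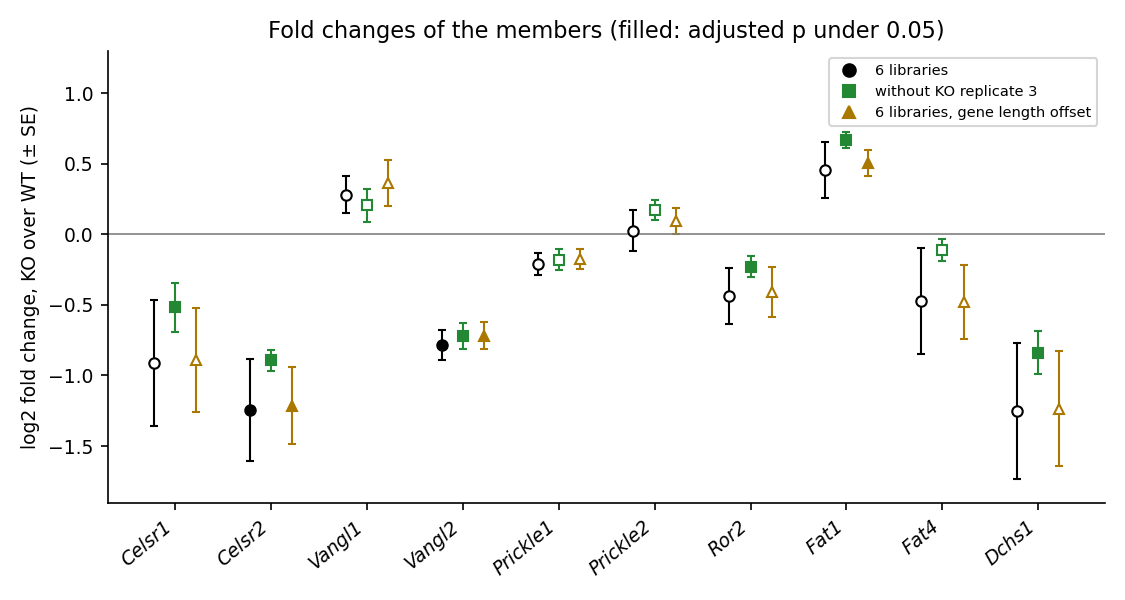
Log2 fold change of KO over WT with its standard error for each of the 10 genes, from all 6 libraries, without KO replicate 3, and from all 6 libraries with a gene length offset, where filled points have an adjusted p under 0.05 from edgeR. Vangl2 and Celsr2 are filled in all 3 fits, Fat1 in the 2 fits other than the first, and Fat4, Vangl1, Prickle1 and Prickle2 in none of the 3.

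The members are long transcripts, from 4164 bases for Prickle1 to 17595 bases for Fat4 by the deposited lengths, and 5 of them exceed 10000 bases (Celsr1, Celsr2, Dchs1, Fat1 and Fat4). Gene length moved with the level in KO replicate 3. Over the 499 genes tested that exceed 10000 bases, the median log2 ratio to the WT mean was 0.080 and 0.062 in KO replicates 1 and 2 and -0.29 in KO replicate 3, while over the 2790 genes of up to 2000 bases it was -0.076, -0.077 and 0.098. KO replicate 3 was the lowest library for 9 of the 10 members, against 34% of all genes tested and 56.7% of those over 10000 bases. The values of 4 long members in KO replicate 3 were far under that median, at -2.32 for Celsr1, -2.40 for Celsr2, -2.81 for Dchs1 and -1.66 for Fat4, and Fat1 was at -0.080. Of the 499 long genes, 25 lay lower there than Celsr1, 24 than Celsr2, 16 than Dchs1, 46 than Fat4 and 311 than Fat1. Vangl2, of 6648 bases, was at -0.85, -0.61 and -0.92 in KO replicates 1 to 3. With an offset for gene length fitted in each library, Celsr2 and Vangl2 stayed called, with log2 fold changes of -1.22 and -0.72 (edgeR adjusted p = 0.0170 and 0.00427), and Fat1 was called as higher. The part of RNA quality in KO replicate 3 was not tested.

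**Figure D3:**
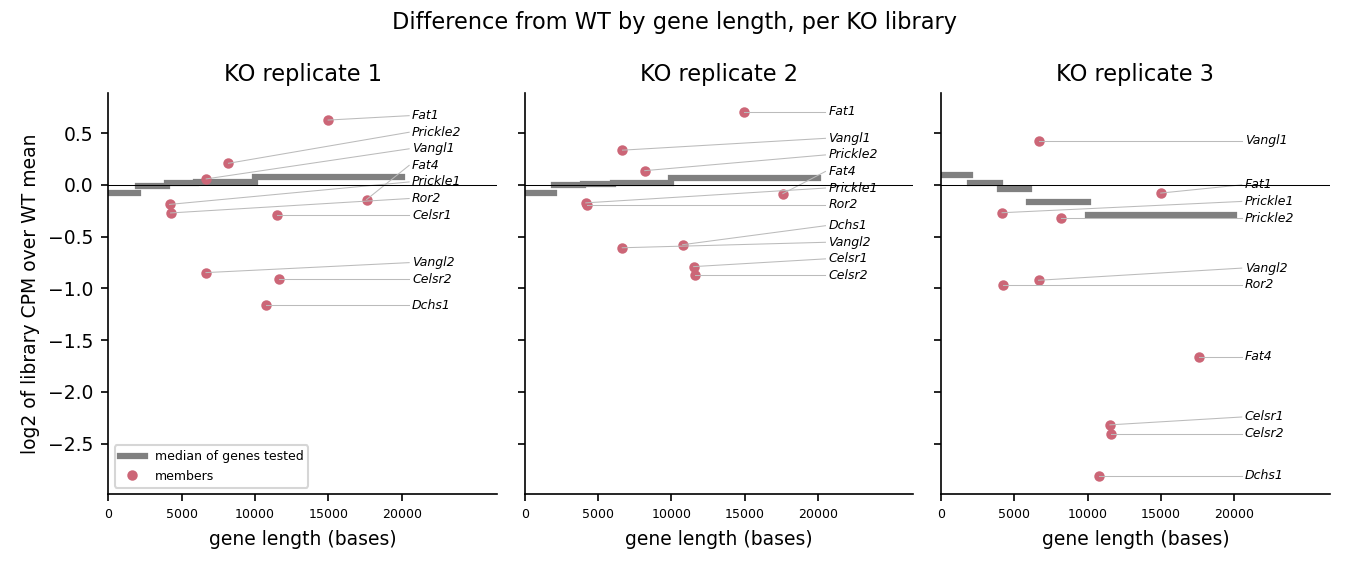
Log2 ratio of CPM to the WT mean against gene length in bases for each KO library, with the 10 members as points and the median of all genes tested in 5 length classes as grey bars. The bars slope downwards in KO replicate 3, to -0.29 for genes over 10000 bases, and Celsr1, Celsr2, Dchs1 and Fat4 lie more than 1 log2 unit below them there.

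The ratio of 2 genes within a library does not depend on how libraries are scaled, and 5 such ratios were compared between genotypes by an exact permutation test (two-sided, 3 against 3, where the smallest possible p is 0.1). The Vangl1 to Vangl2 ratio of CPM was -0.63, -0.80 and -0.64 on the log2 scale in WT replicates 1 to 3 and 0.22, 0.26 and 0.66 in KO replicates 1 to 3. Vangl2 was thus the more abundant paralogue in every WT library and Vangl1 in every KO library by CPM, and since the deposited lengths of both are close (6665 and 6648 bases) the order per length was the same. The difference of the mean log2 ratio was 1.07 (exact permutation p = 0.1, adjusted over 5 ratios 0.167).

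The Fat1 to Fat4 ratio was 1.45, 1.61 and 1.63 on the log2 scale in WT and 2.33, 2.35 and 3.14 in KO replicates 1 to 3, without overlap, a difference of 1.04 (exact permutation p = 0.1, adjusted 0.167). It was also higher in KO replicates 1 and 2, where Fat4 lay near WT and Fat1 above it. The Dchs1 to Fat4 ratio, ligand to receptor, was -1.57, -1.74 and -1.50 in WT and -2.62, -2.09 and -2.75 in KO, without overlap, a difference of -0.88 (exact permutation p = 0.1, adjusted 0.167). With 3 libraries a genotype none of these can pass a threshold of 0.05.

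The other pairs overlapped between genotypes. The Celsr1 to Celsr2 ratio had a mean log2 value of -1.51 ± 0.288 in WT and -1.23 ± 0.308 in KO (SD, n = 3, exact permutation p = 0.6). That of Prickle1 to Prickle2 was -1.14 ± 0.129 in WT and -1.36 ± 0.238 in KO (SD, n = 3, exact permutation p = 0.3).

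**Figure D4:**
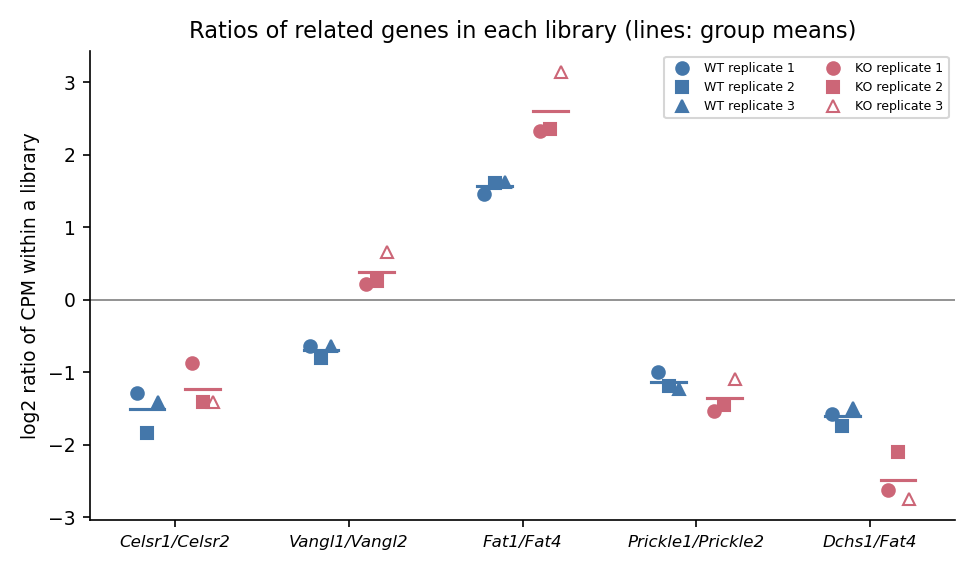
Log2 ratio of CPM within each library for 5 pairs of related genes, with lines at the group means. The Vangl1 to Vangl2 ratio lies below 0 in the 3 WT libraries and above 0 in the 3 KO libraries, and the groups do not overlap for Vangl1 to Vangl2, Fat1 to Fat4 and Dchs1 to Fat4.

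The 250 bases before the annotated start were read from the RefSeq promoter table of GRCm38.p6, which held entries for Celsr2, Vangl2, Fat1, Fat4, Prickle1, Prickle2 and Ror2. Those of Celsr2, which fell, and of Fat4 and Ror2, which did not pass the test with all libraries, are shown for comparison. These 3 windows lie outside the annotated gene, while all 250 bases of the Vangl2 window lie within annotated exons of that gene and are not shown. Celsr2 is at chr3:108415580-108415829 on the minus strand, Fat4 at chr3:38886690-38886939 on the plus strand and Ror2 at chr13:53286125-53286374 on the minus strand, all 5′ to 3′ with motif matches in capitals.
Celsr2: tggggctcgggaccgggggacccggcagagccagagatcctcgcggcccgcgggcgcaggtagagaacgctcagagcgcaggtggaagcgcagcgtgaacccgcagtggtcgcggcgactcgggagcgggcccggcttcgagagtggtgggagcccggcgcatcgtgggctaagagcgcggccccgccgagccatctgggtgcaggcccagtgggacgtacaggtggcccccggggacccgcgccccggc
Fat4: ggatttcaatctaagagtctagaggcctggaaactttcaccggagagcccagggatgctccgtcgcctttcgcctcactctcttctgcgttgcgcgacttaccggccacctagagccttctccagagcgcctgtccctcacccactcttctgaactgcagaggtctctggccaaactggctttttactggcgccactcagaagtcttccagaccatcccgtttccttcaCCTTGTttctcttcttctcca
Ror2: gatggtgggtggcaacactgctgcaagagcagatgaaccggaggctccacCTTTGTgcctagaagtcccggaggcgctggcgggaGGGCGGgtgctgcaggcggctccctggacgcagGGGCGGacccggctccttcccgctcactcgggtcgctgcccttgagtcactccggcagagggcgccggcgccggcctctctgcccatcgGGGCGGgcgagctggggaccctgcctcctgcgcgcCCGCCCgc

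The motifs searched on both strands were the octamer ATGCAAAT, a SOX motif ACAANG, a KLF4 motif GGGNGTG, the MYC E-box CACGTG, the GC box GGGCGG and the CCAAT box, of which the GC box and the KLF4 motif can share bases. The Celsr2 window held no match to any of the 6, Fat4 held 1 SOX match, and Ror2 held 1 SOX match and 4 GC boxes. Of 32851 promoters of the same length, 1.6% held the octamer, 36.3% the SOX motif, 26.1% the KLF4 motif, 6.02% the E-box, 32.7% the GC box and 33.8% the CCAAT box. Celsr2, Ror2 and Fat4 had 32, 24 and 11 CpG dinucleotides in the window, against a median of 6.

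Other genes of the pathway were read as 4 lists. Among 11 tested core polarity components 2 fell and 2 rose, a median log2 fold change of -0.22, with 16.6% and 16.4% of all genes called in these directions. The 2 that fell were Prickle3 (11.6 to 12.7 CPM in WT and 8.07 to 8.78 in KO, log2 fold change -0.53, standard error 0.108, edgeR adjusted p = 0.0140) and Dvl2, which encodes a Dishevelled protein (-0.52, standard error 0.133, edgeR adjusted p = 0.0279). The 2 that rose were its paralogue Dvl1 (0.51, standard error 0.0893, edgeR adjusted p = 0.00921) and the Frizzled receptor gene Fzd6 (0.55, standard error 0.170, edgeR adjusted p = 0.0473). Dvl1 had 67.0, 63.6 and 72.9 CPM in WT and 92.2, 92.1 and 105 in KO replicates 1 to 3, and Dvl2 had 50.5, 51.5 and 54.6 in WT and 39.8, 40.5 and 29.2 in KO. Leaving out KO replicate 3 gave 4 lower and 4 higher genes, against 24.2% and 23.9% of all genes then tested. The counts were 0 lower and 1 higher without WT replicate 2 or 3, and 1 and 1 without WT replicate 1. Without KO replicate 1 or 2 the number higher was 1. For these fits and those without a WT library the shares of all genes were not computed.

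Of 10 WNT5A-type ligands, receptors and cofactors, 0 fell and 1 rose, against 16.6% and 16.4% of all genes tested, with a median log2 fold change of 0.19. The gene that rose was Gpc4, which encodes a glypican that presents WNT ligands at the cell surface. It had 310, 293 and 289 CPM in WT and 651, 658 and 689 in KO replicates 1 to 3, with both groups tight and far apart (log2 fold change 1.16, standard error 0.0692, edgeR adjusted p = 0.00144). With KO replicate 3 left out, 4 of these genes were higher, against 23.9% of all genes in that fit and 16.4% with all libraries. Wnt5a, the ligand of ROR2, is named outside the naming rule and after its values were seen, and had 94.5 to 115 CPM in WT and 93.4 to 102 in KO, and the groups overlapped (log2 fold change -0.091, edgeR adjusted p = 0.470).

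Of the 17 tested polarity effectors and regulators 3 fell and 7 rose, against 16.6% and 16.4% of all genes tested, with a median log2 fold change of 0.26. The 3 lower genes were Fuz and Intu, which encode effectors needed for building cilia, and Dact1, which encodes a Dishevelled-binding regulator. Fuz had 15.2, 15.5 and 18.6 CPM in WT and 5.35, 5.70 and 5.38 in KO replicates 1 to 3 (log2 fold change -1.59, standard error 0.128, edgeR adjusted p = 0.00182). Dact1 had 25.1, 33.1 and 28.1 CPM in WT and 11.5, 11.1 and 8.19 in KO (-1.49, standard error 0.168, edgeR adjusted p = 0.00349), and Intu changed by -0.69 on that scale (standard error 0.199, edgeR adjusted p = 0.0379). Among the genes that rose was Cdc42, which encodes a small GTPase of actin organization and cell polarity. It had 399, 450 and 414 CPM in WT and 595, 600 and 659 in KO replicates 1 to 3 (0.55, standard error 0.0817, edgeR adjusted p = 0.00614). Without WT replicate 1, 2 or 3 the higher genes were 4 in each case, and the shares of all genes were not computed for these fits.

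Of 9 other giant cadherins and Fat-Dachsous partners 8 were tested, 1 fell and 3 rose, against 16.6% and 16.4% of all genes tested, with a median log2 fold change of 0.21. Evl, which encodes an Ena/VASP protein of actin assembly, fell (-0.43, standard error 0.131, edgeR adjusted p = 0.0467), while its paralogue Enah (0.53, standard error 0.148, edgeR adjusted p = 0.0356) and the polarity scaffold gene Mpp5 (0.49, standard error 0.133, edgeR adjusted p = 0.0316) rose. Dchs2, a paralogue of Dchs1, rose from a low level, with 19, 32 and 13 counts in WT and 69, 39 and 52 in KO replicates 1 to 3 (log2 fold change 1.32, standard error 0.404, edgeR adjusted p = 0.0454). Fat2, with 1 to 8 counts a library, did not pass the filter. With any WT library left out 0 of these genes were called in either direction. Without KO replicate 1 they were 0 lower and 1 higher, without KO replicate 2 they were 1 and 1, and without KO replicate 3 they were 2 and 4, against 24.2% and 23.9% of all genes in that fit. For the fits without a WT library, KO replicate 1 or KO replicate 2 such shares were not computed.

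**Figure D5:**
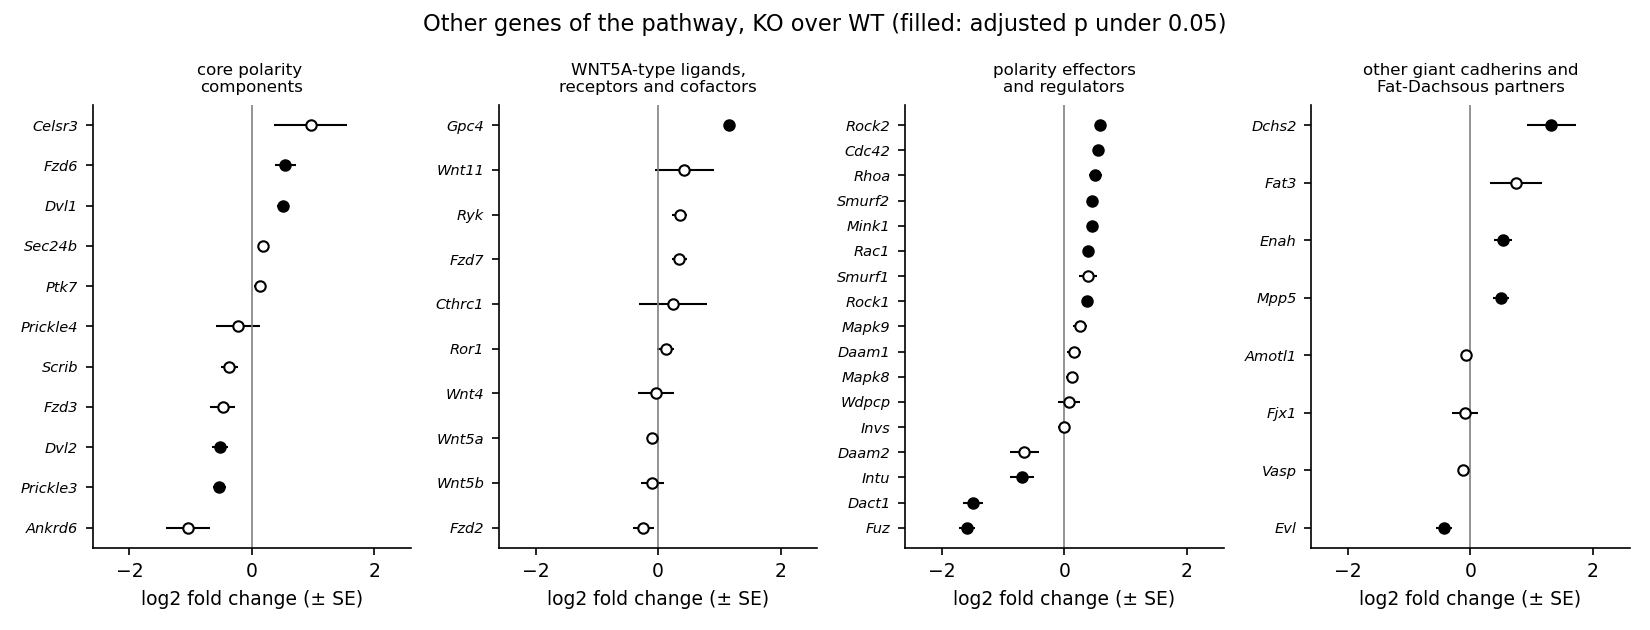
Log2 fold change of KO over WT with its standard error for the tested genes of 4 pathway lists, where filled points have an adjusted p under 0.05 from edgeR. Gpc4 stands at 1.16 and Fuz at -1.59, and the effector list holds the most filled points, 7 to the right of 0 and 3 to the left.

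The genes whose pattern over the 6 libraries was most like that of Celsr2, by the root mean square difference of log2 CPM centred on the WT mean, were Ezh2, Dnmt1 and Ltbp4, at differences of 0.075, 0.079 and 0.090. Their log2 fold changes were -1.28, -1.33 and -1.29, beside -1.24 for Celsr2. The 3 nearest to Fat1, the member with the highest log2 fold change, were Irs1, Ciapin1 and Slc7a3, at 0.050, 0.060 and 0.070 and with log2 fold changes of 0.50, 0.43 and 0.43, beside 0.46 for Fat1. For both members the near-equal fold changes follow from choosing genes by this likeness in the same libraries.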

How the data were processed

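RNA of 3 WT and 3 KO cultures was measured. Per the study's methods, the authors made stranded mRNA libraries and aligned paired-end Illumina reads to GRCm38/mm10 with HISAT2 2.1.0. The authors deposited raw counts per gene with gene lengths (other), and FPKM from Cufflinks 2.1.1 for 12633 genes. The counting program and strand setting are not given in the sources used here. The deposited p-value (FDR) and log2 fold change columns hold the authors' own comparison and were not used.

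From the counts, R 4.3.3 with edgeR 4.0.16 was used: TMM factors, filterByExpr at its defaults, the quasi-likelihood test without covariates, and Benjamini-Hochberg adjustment over 13386 genes. The standard error was taken as the size of the log2 fold change over the root of the F statistic. The log2 CPM used a prior count of 2. Alternatives were RLE factors, library size only, DESeq2 1.42.0, no filter, a loess offset for gene length (span 0.5), the replicate number as a block, both together, limma 3.58.1 on log2(FPKM + 1), and each library left out. Ratios used scipy 1.17.1. Positions came from GENCODE M21.

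The text names Rnf20, the 10 members, up to 3 called genes in each direction of 4 pathway lists, and the 3 genes nearest to 2 members. Of the effectors that rose, 2 named by this rule are not reported here. Members and lists were chosen with earlier results of these data known.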

Additional observations from a re-analysis of the deposited data

How the results depend on the processing

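Rnf20 kept its fall in every alternative, with a log2 fold change between -2.64 and -2.25. Vangl2 stayed lower in all 14 alternatives. Where 1 library was left out, the members called as lower numbered 1 to 5 and those called as higher 0 to 1. At an adjusted p under 0.01 the number lower was 1. The number of members higher was 1 with the gene length offset, 1 with the block and the length offset together, and 1 with limma on FPKM. By the study's thresholds 1 member was lower with DESeq2. Shares of all genes were computed only for the main edgeR test and without KO replicate 3, so not for the adjusted p under 0.01 or any other alternative. No other change of normalization, filter or test moved the counts of members by more than 1.5 times. Prickle2 turned negative with library size only (-0.034) and limma on FPKM (-0.0011), and its range over the left-out libraries was -0.070 to 0.17. The cause was not tested.

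Core components numbered 0 to 4 lower and 1 to 4 higher over the left-out libraries, and 1 higher with library size only, 1 with no filter and 1 with limma on FPKM. WNT5A-type genes numbered 1 to 4 higher over the left-out libraries and 3 with DESeq2, and effectors 4 to 8 higher. The giant cadherin partners numbered 0 to 2 lower and 0 to 4 higher, with 0 lower under no filter and 0 under the length offset. The 5 ratios kept their sign in every alternative, at 0.097 to 0.39 for Celsr1 to Celsr2, 0.93 to 1.15 for Vangl1 to Vangl2, 0.78 to 1.18 for Fat1 to Fat4, -0.36 to -0.13 for Prickle1 to Prickle2 and -1.08 to -0.75 for Dchs1 to Fat4 over the left-out libraries.

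No pairing of the samples by replicate number was visible, which does not show that there was none. Deviations from the group mean correlated at -0.066, 0.037 and 0.011 over genes for numbers 1 to 3, and KO replicate 1 correlated best with WT replicate 2. With the replicate number as a block the members lower stayed 2 and those higher 0, core components were 1 lower and 1 higher, and giant cadherin partners 0 lower and 0 higher. With the block and the length offset together core components were 1 higher and giant cadherin partners 0 lower and 0 higher. With the block the difference of the Vangl1 to Vangl2 ratio was 1.07 (exact sign-flip permutation p = 0.25, the smallest possible). The lowest member, Celsr1, had 65 counts in KO replicate 3, and 3 libraries a genotype limit the tests of single ratios to a p of 0.1.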
